A study of Mus musculus with 19 samples.

Results

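A set of 9 genes that mark proprioceptors and other large-fibre sensory neurons were followed through RNA sequencing of whole lumbar dorsal root ganglia of mice, which house the cell bodies of sensory neurons. They were taken by name from the deposited table of counts and FPKM (a level corrected for length and depth), in which all 9 of 9 names were found among 36682 genes: Nefl, Nefm, Nefh, Cntnap2, Etv1, Runx3, Whrn, Calb1 and Pvalb. All 19 mice were male and homozygous for the macrophage Fas-induced apoptosis (MaFIA) transgene, the controls included. As background, this transgene is driven by the Csf1r promoter and lets the dimerizer AP20187 kill macrophages and related myeloid cells, so it is not restricted to macrophages of the ganglia. The 4 groups were naive age-matched mice given vehicle (n = 5), naive mice given AP20187 (n = 4), mice with destabilization of the medial meniscus (DMM, a surgical model of knee osteoarthritis) given vehicle (n = 5), and DMM mice given AP20187 (n = 5). Injections were intraperitoneal and daily on 5 days, and in the DMM mice they came 8 weeks after surgery. The L3 to L5 ganglia were pooled per mouse, from the operated side in DMM mice, so each library is 1 mouse. The labels do not give the age in weeks, nor what the mouse numbers mean, such as cohort or litter.

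As background, proprioceptors are the sensory neurons that report muscle stretch and tension, and with the touch neurons of large myelinated axons they form the large-diameter class of the ganglion. These neurons are rich in neurofilaments, the intermediate filaments that set axon calibre. Proprioceptors are recognised by Pvalb, Runx3, Etv1 and Whrn, while neurofilaments and Cntnap2 are shared with other myelinated neurons and are not exclusive to either class. Pvalb, which encodes the calcium-binding protein parvalbumin, is also a gene of fast skeletal muscle fibres, and it is treated below beside muscle genes.

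Libraries held 60984830 to 74691396 counts, so depth differed little between groups. A library's content differed more. Counts of 10 pan-neuronal genes made up 0.339% to 0.576% of all counts in naive mice with vehicle, 0.115% to 0.399% in naive mice with AP20187, 0.288% to 0.526% in DMM mice with vehicle and 0.119% to 0.292% in DMM mice with AP20187. The summed level of 16 bone marrow genes was 2905 to 10684 CPM (counts scaled to library size) in naive mice with vehicle, 8234 to 27040.0 in naive mice with AP20187, 1377 to 24077 in DMM mice with vehicle and 16594 to 26821 in DMM mice with AP20187. These genes did not move together: 8 rose and 6 fell with AP20187 in DMM mice, and 9 rose and 4 fell in naive mice. Of all genes, 23.8% passed the test described below in DMM mice, 12.4% lower. In naive mice 11.2% passed, 8.61% higher and 2.57% lower. Granulocyte genes such as Ltf (3.30 on the log2 scale in DMM mice) and Prtn3 (3.92) rose, while the B-lineage genes Rag1 (-6.77) and Cd79a (-3.87) and the globin gene Hba-a1 (-2.06) fell there. The labelled tissue was checked against its markers, and all 10 pan-neuronal genes and all 9 nociceptor genes were detected at a level that passed the filter on low counts. The library of DMM mouse 64 with vehicle stood apart from the others of its group, with the lowest pan-neuronal share and the highest bone marrow level. In whole ganglia, fewer cells of a type and less RNA per cell cannot be told apart.

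Levels of the 9 genes were compared by FPKM, which accounts for gene length. Nefl was the highest in 18 of 19 libraries, with 577 to 1353 FPKM in naive mice with vehicle. Nefh and Nefm followed at 431 ± 208 and 423 ± 206 FPKM in that group (SD, n = 5), and Nefh exceeded Nefm in 11 of 19 libraries, so their order was not settled. Pvalb came next at 50.05 ± 21.2 FPKM and exceeded Cntnap2, at 18.0 ± 5.88 FPKM, in 19 of 19 libraries. Etv1 and Calb1 lay at 8.97 ± 2.25 and 8.49 ± 2.98 FPKM, and Whrn and Runx3 were the lowest at 1.90 ± 0.649 and 1.18 ± 0.334 FPKM. Even the lowest, Whrn and Runx3, had at least 105 and 277 counts in every library, and all 9 genes passed the filter on low counts.

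**Figure D1:**
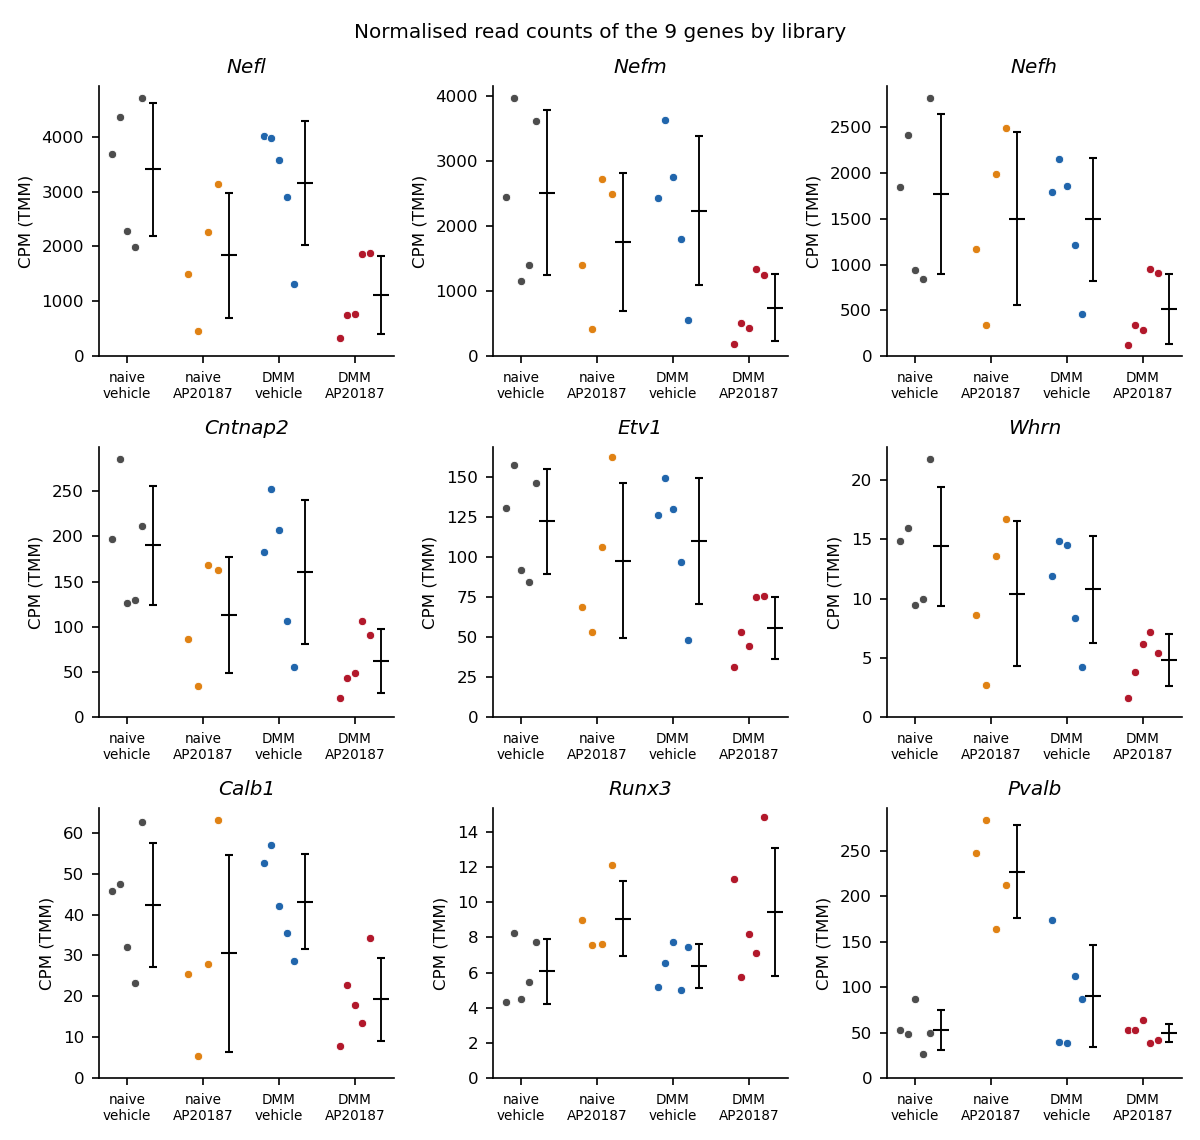
Normalised level (CPM after TMM normalization, linear axis from 0) of each of the 9 genes in each of the 19 libraries, by group; points are mice and the black mark is the mean with its SD. DMM mice with AP20187 are the lowest group on average in 8 panels and not in that of Runx3, and Pvalb is high in the 4 naive mice with AP20187.

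In DMM mice, Nefl, Etv1 and Cntnap2 were lower with AP20187 than with vehicle, by 2.82-fold, 1.97-fold and 2.59-fold. No gene of the 9 passed the test in the other direction. Over all 22778 genes tested, 23.8% passed in this comparison and 12.4% were lower. The 3 in 9 is a count over few genes with no test, and it ran from 0 to 6 with 1 library left out. No difference from the share of all genes is therefore read from it. The median log2 fold change of the 9 genes was -1.16, against -0.10 over all genes. For 8 of the 9, all 5 AP20187 libraries lay below the mean of the vehicle group, but in none of the 9 were the groups fully apart, as 4.18% of all genes were with AP20187 lower. The vehicle library of mouse 64 lay within the AP20187 range for the 8 genes other than Pvalb. The test was edgeR's quasi-likelihood test with Benjamini-Hochberg adjustment over all genes, with a threshold of 0.05, and it was used for every adjusted p below unless another is named.

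The neurofilament subunits were the most abundant of the set. Nefl (ENSMUSG00000022055, chr14:68321312-68326544, + strand, build GRCm39 as for all gene positions here) encodes the light subunit, on which assembly of the filament depends. Its level was 4011, 3984, 3570.0, 2895 and 1321 CPM in DMM vehicle mice 32, 33, 34, 63 and 64, and 340.0, 754, 769, 1868 and 1874 CPM in DMM AP20187 mice 58 to 62. Vehicle mice 32 to 34 and 63 were above every AP20187 mouse, and mouse 64 was below AP20187 mice 61 and 62. The log2 fold change was -1.49 with a standard error of 0.49 (edgeR adjusted p = 0.0346). Nefm (ENSMUSG00000022054, chr14:68320039-68362295, - strand) encodes the medium subunit, and Nefh (ENSMUSG00000020396, chr11:4888754-4898064, - strand) the heavy subunit whose phosphorylated tail spaces filaments in large axons.

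Nefm stood at 2442, 3633, 2755, 1804 and 563 CPM in DMM vehicle mice 32, 33, 34, 63 and 64, and at 187, 515, 439, 1348 and 1247 CPM in AP20187 mice 58 to 62. Nefh stood at 1786, 2154, 1851, 1211 and 461 CPM in the same vehicle mice, and at 120.5, 339, 286, 946 and 908 CPM in the AP20187 mice. For both, mouse 64 again sat among the AP20187 values and the other 4 vehicle mice were above every AP20187 mouse. Their log2 fold changes, -1.58 (SE 0.58, edgeR adjusted p = 0.0542) for Nefm and -1.52 (SE 0.58, edgeR adjusted p = 0.0620) for Nefh, were as large as that of Nefl but missed the threshold. Nefl lies inside the annotated span of Nefm on the opposite strand. The libraries were stranded, but whether counting used strand is not given in the sources used here, so reads of this pair could have been split between them.

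Cntnap2 (ENSMUSG00000039419, chr6:45036291-47281147, + strand) encodes CASPR2, which clusters potassium channels beside the node of Ranvier. Its level was 183, 253, 207, 106 and 55.5 CPM in DMM vehicle mice 32, 33, 34, 63 and 64, and 20.8, 43.0, 49.0, 106 and 91.5 CPM in AP20187 mice 58 to 62. Mouse 63 with vehicle equalled the highest AP20187 mouse to 3 digits, and mouse 64 lay below 2 of the AP20187 mice. For Cntnap2 the log2 fold change was -1.37 (SE 0.48, edgeR adjusted p = 0.0435).

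Etv1 (ENSMUSG00000004151, chr12:38829379-38920483, + strand) encodes an ETS-family transcription factor, ER81, that proprioceptors need to form their connections in the spinal cord. It stood at 126, 149, 130.0, 96.8 and 48.2 CPM in DMM vehicle mice 32, 33, 34, 63 and 64, and at 31.3, 53.4, 44.6, 75.1 and 75.7 CPM in AP20187 mice 58 to 62. The other 4 vehicle mice were above every AP20187 mouse, and mouse 64 was below 3 of them. For Etv1 it came to -0.98 on the log2 scale (SE 0.33, edgeR adjusted p = 0.0402).

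These 3 calls depended on single libraries. In a fit of the DMM groups alone 2 of 9 passed (all genes 19.8%), Nefl and Calb1, and the edgeR adjusted p was 0.0529 for Etv1 and 0.0609 for Cntnap2. None of the 9 genes passed by edgeR when AP20187 mouse 58, 59 or 60 or vehicle mouse 32 was left out, and 14.2%, 17.4%, 17.2% and 15.1% of all genes did. Without vehicle mouse 33 or 34 the 1 gene to pass was Pvalb, against 15% and 17.2% of all genes. There were 2 without vehicle mouse 63 (all genes 20.9%) and 4 without AP20187 mouse 62 (all genes 17.3%). There were 6 without AP20187 mouse 61 (all genes 28.1%) or vehicle mouse 64 (all genes 34%), so the share of all genes called also moved with the library left out. Without vehicle mouse 32, for example, the edgeR adjusted p was 0.0687 for Nefl, 0.0784 for Cntnap2 and 0.0830 for Etv1. The vehicle mice also carry 2 runs of numbers: against mice 63 and 64 alone, whose numbers follow those of the AP20187 mice, 0 of 9 genes passed by edgeR and 4.73% of all genes, and against mice 32 to 34 alone 7 of 9 passed and 36.3% of all genes. All 9 genes had an unadjusted p below the threshold (all genes 37.3%), and DESeq2 called 7 of 9, all lower, against 30.5% of all genes in either direction and 16.1% lower.

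Whrn (ENSMUSG00000039137, chr4:63333147-63414188, - strand) encodes whirlin, a scaffold protein of hair cells that also marks proprioceptors. It ranged over 4.21 to 14.9 CPM in DMM mice with vehicle and 1.59 to 7.17 CPM with AP20187, and missed the threshold (log2 fold change -1.16, SE 0.45, edgeR adjusted p = 0.0674). Calb1 (ENSMUSG00000028222, chr4:15881264-15908064, + strand) encodes the calcium-binding protein calbindin. It ranged over 28.6 to 56.9 CPM with vehicle and 7.80 to 34.4 CPM with AP20187, where 4 of 5 AP20187 mice lay below every vehicle mouse, and it too missed the threshold (log2 fold change -1.16, SE 0.47, edgeR adjusted p = 0.0759).

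In naive mice, none of these 7 genes passed the test, against 11.2% of all genes. Their log2 fold changes ran from -0.89 for Nefl to -0.24 for Nefh, and their SEs from 0.35 to 0.61. Nefl stood at 3679.7, 4351, 2289, 1990.1 and 4703 CPM in naive vehicle mice 1 to 5, and at 1503, 464, 2254 and 3139.9 CPM in naive AP20187 mice 1, 3, 4 and 5. AP20187 mouse 3 was the lowest of all 9 naive mice for each of the 7 genes, and AP20187 mouse 5 lay at or above the vehicle mean for Nefh, Etv1, Whrn and Calb1, so the groups overlapped. Whether AP20187 acted differently on the 7 in DMM and in naive mice was tested by the interaction. None of the 7 passed, against 0.114% of all genes, so few genes passed at all. The values ran from -1.28 (SE 0.82, edgeR adjusted p = 0.801) for Nefh to -0.61 (SE 0.70, edgeR adjusted p = 0.924) for Nefl. The 2 comparisons of AP20187 with vehicle use separate mice.

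The 7 genes followed the neuronal content of the library. Across the 19 libraries, which share depth and composition, log2 CPM of each correlated with the mean log2 CPM of the 10 pan-neuronal genes at r = 0.87 for Calb1 to r = 0.98 for Nefl, and after group means were removed at r = 0.80 for Calb1 to r = 0.96 for Nefl. Nefh and Nefm tracked each other at r = 0.99. With the mean of the bone marrow genes their r ran from -0.77 for Etv1 to -0.62 for Calb1. That mean joins genes that rose and genes that fell with AP20187, so it is a poor measure of marrow content. The part of bone marrow RNA in their values was not tested. These are descriptions over libraries, without a test. The genes most like the mean of the 3 neurofilament genes over the 19 libraries were Vamp1 (r = 0.99), which encodes a synaptic vesicle protein, Cplx1 (r = 0.99), which encodes complexin 1, Tlcd3b, Chga and Sh3gl2 (r = 0.99 each).

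**Figure D2:**
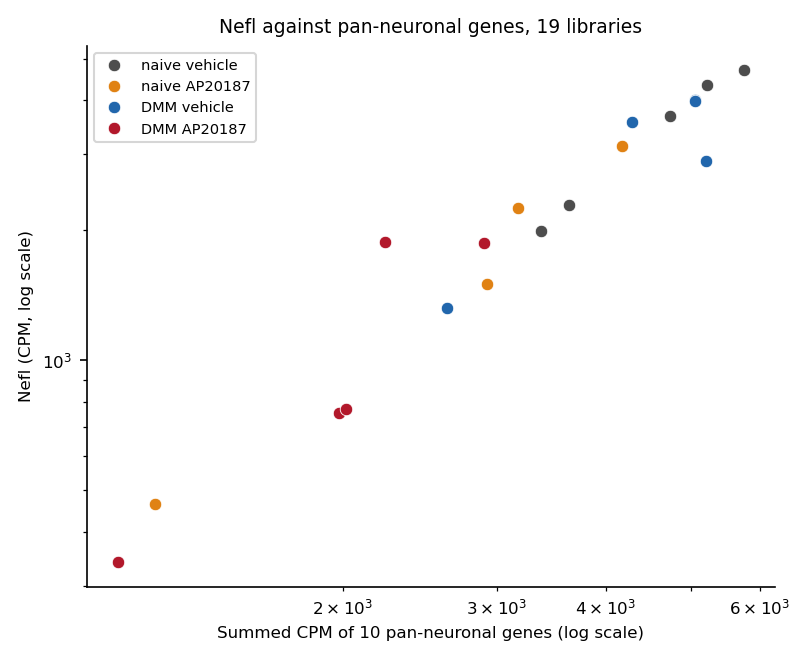
Nefl level (CPM, log axis) against the summed level of 10 pan-neuronal genes (CPM, log axis), 1 point per library, coloured by group. The points lie along a line from DMM AP20187 mouse 58, with 340.0 CPM of Nefl, to naive vehicle mouse 5, with 4703 CPM.

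The comparison was therefore repeated with each library scaled to its pan-neuronal counts instead of its total. In DMM mice the differences of the 7 genes then fell within -0.53 to 0.17 on the log2 scale, and none passed the test. The neurofilament values were -0.44 (SE 0.28, edgeR adjusted p = 0.205) for Nefl, -0.53 (SE 0.38, edgeR adjusted p = 0.261) for Nefm and -0.49 (SE 0.37, edgeR adjusted p = 0.286) for Nefh. Etv1 turned to 0.17 (SE 0.22, edgeR adjusted p = 0.547). Per 1000 pan-neuronal counts, Etv1 had 24.3 ± 5.76 counts in vehicle mice and 27.4 ± 4.28 in AP20187 mice (SD, 5 mice in each group). On this scale the median of all genes moved to 1.05, with 41.3% of all genes called higher and 0.448% lower, or 41.8% in either direction. A value near 0 with these errors does not show that the genes kept a fixed share.

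**Figure D3:**
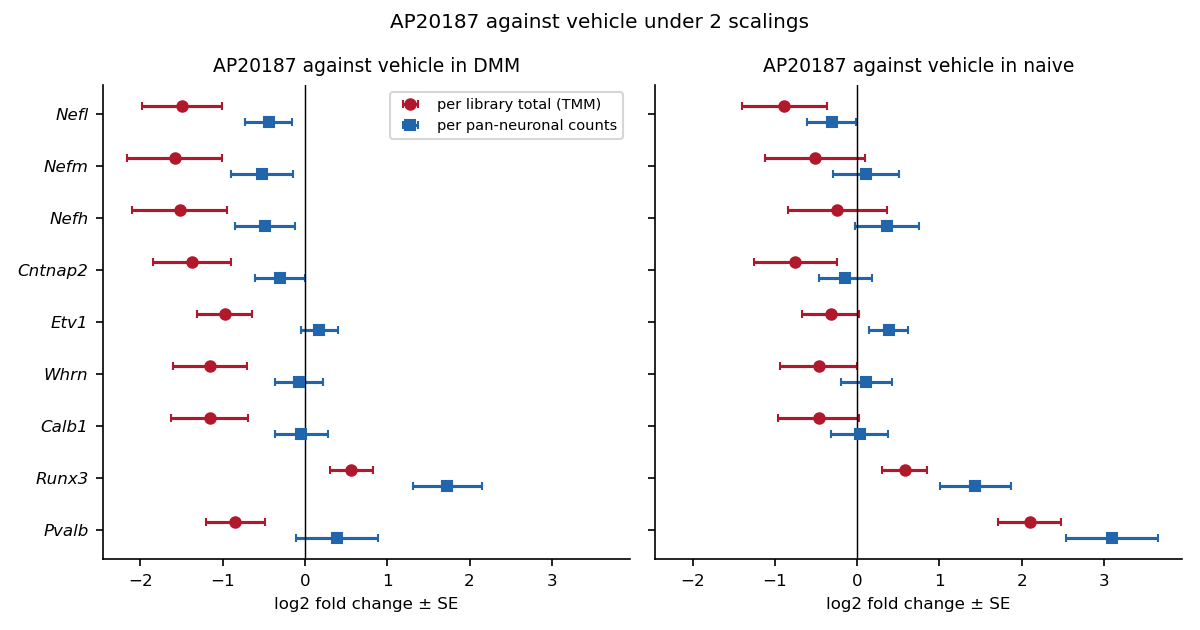
Log2 fold change of AP20187 against vehicle with its standard error for the 9 genes, in DMM mice (left) and naive mice (right), scaled to the library total after TMM normalization (red circles) and to pan-neuronal counts (blue squares). In DMM mice the 7 neuronal genes move from between -1.58 and -0.98 to between -0.53 and 0.17, while Runx3 in both panels and Pvalb in naive mice lie to the right of 0.

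Other genes of these neurons are read against the 12.4% of all genes that were lower in DMM mice. Of 12 other proprioceptor genes 2 fell, Pou4f3 (log2 fold change -1.61), a POU-domain transcription factor, and Pcdh8 (-1.67), a protocadherin, and none rose, which is near that share. The list ran from -1.67 to 0.73, for Heg1, which did not pass. Piezo2, the mechanically gated channel of proprioceptors and touch neurons, had -1.50 and did not pass. Of 15 genes of large-fibre touch neurons 7 fell, among them Ldhb (-0.78), Ntrk2 (-0.65), which encodes the receptor of BDNF, and Thy1 (-1.22). The median of these 2 lists was -1.01 and -1.21.

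Of 7 partners of Cntnap2 beside the node, 1 fell, the scaffold gene Dlg4 (-1.17), and of 6 genes of the node and its flank 1 fell, Gldn (-1.33), which encodes gliomedin, a protein secreted by Schwann cells. Both counts are near the share of all genes, while the median log2 fold changes of the 2 lists were -1.35 and -1.21. The potassium channel gene Kcna2 had -1.37 and did not pass. Of 10 other cytoskeletal genes of neurons 8 fell, among them Tubb2a (-1.29), Prph (-1.37), which encodes peripherin, Stmn2 (-0.99) and Tubb3 (-1.36). The fall was not limited to large-fibre genes: 6 of 9 nociceptor genes fell, with a median of -1.67, among them P2rx3 (-1.74) and Mrgprd (-2.38), and 7 of 10 pan-neuronal genes fell, with a median of -1.21. Of 7 genes of myelinating Schwann cells 3 fell, with a median of -0.65. Scaled to pan-neuronal counts, 0 of the other proprioceptor, touch neuron, Cntnap2 partner, node, cytoskeletal and Schwann cell genes were called lower by edgeR. Only 0.448% of all genes were, so a count of 0 is near that share. Among them Heg1 was called higher (1.87), as were 41.3% of all genes. The medians were 0.10 for proprioceptor, -0.15 for touch neuron, -0.30 for partner, -0.14 for node, -0.30 for cytoskeletal and 0.29 for Schwann cell genes. The nociceptor list had a median of -0.65 with 1 gene lower, Mrgprd.

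In naive mice, 1 of the 12 other proprioceptor genes rose, Lmcd1 (log2 fold change 1.38), which muscle also expresses, and 0 fell. No gene of the touch neuron, node, Cntnap2 partner, cytoskeletal or nociceptor lists passed by edgeR, and 1 of 10 pan-neuronal genes fell, Nsg2 (-0.94). Their medians were -0.51 for touch neuron genes, -0.75 for partners of Cntnap2, -0.72 for node genes, -0.78 for cytoskeletal genes and -1.02 for nociceptor genes. For comparison, 11.2% of all genes passed in naive mice, 8.61% higher and 2.57% lower.

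The 3 neurofilament genes did not keep the same ratio in every group. In naive mice with AP20187 there were 1.29, 1.35, 1.14 and 1.26 Nefl counts per Nefh count in mice 1, 3, 4 and 5, against 2.00, 1.80, 2.43, 2.35 and 1.67 in naive vehicle mice 1 to 5. Every AP20187 mouse was below every vehicle mouse. The difference of the mean log2 ratios was -0.69 (exact two-sided permutation test, p = 0.0159, the smallest that 4 against 5 can give; adjusted over 12 ratio comparisons, p = 0.0476). This ratio was chosen after the values had been seen.

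In DMM mice the ratio was 2.35 ± 0.378 in AP20187 mice against 2.26 ± 0.406 in vehicle mice (SD, 5 mice in each group; exact permutation p = 0.683, adjusted p = 0.838). Between the AP20187 groups the ratio was higher in DMM than in naive mice by 0.89 on the log2 scale (exact permutation p = 0.0159, adjusted p = 0.0476). For Nefm to Nefh that difference was 0.31 and for Nefl to Nefm 0.58, each with an exact permutation p of 0.0159 and an adjusted p of 0.0476. These comparisons share the naive AP20187 mice with the one above, and the ratios are built from the same genes. The adjusted permutation p of 0.0476 rests on their being tied at the smallest p, so they do not count as separate findings. Nefm to Nefh did not differ beyond its spread between the naive groups (log2 difference -0.25, exact permutation p = 0.127, adjusted p = 0.254), and Nefl to Nefm had -0.44 (exact permutation p = 0.0476, adjusted p = 0.114).

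The naive AP20187 libraries also differed from the others in transcripts of other tissues. Of 10 genes of cerebellar neurons 4 were lower there than in naive vehicle mice: Car8, Cbln3, Gabra6 and Slc32a1. In this comparison 2.57% of all genes were lower. Car8 was also lower with AP20187 in DMM mice (log2 fold change -1.19, edgeR adjusted p = 0.0038). Pcp2 was at 0 in 1 naive AP20187 library. Gabra6 was at 0 counts in all 4 of them and at 0.613 to 1.44 CPM in naive vehicle libraries, and Cbln3 was at 0.0648 to 0.185 CPM against 1.51 to 2.89 CPM. The summed level of the 10 genes overlapped, at 78.3 to 136 CPM against 74.1 to 166 CPM. Of 8 genes of central nervous system glia 2 were lower in naive mice with AP20187, Mog (-2.05) and Slc1a2 (-1.09), and their mean log2 CPM was 0.45 to 1.27 there and 1.55 to 2.16 in the other libraries. The part of these transcripts in the neurofilament ratio was not tested.

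**Figure D4:**
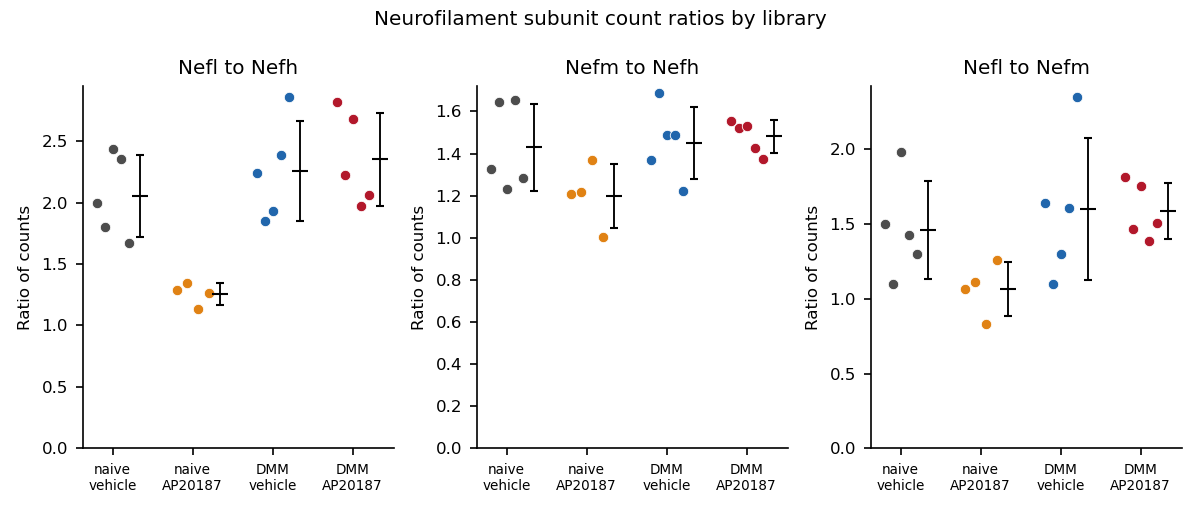
Ratio of deposited counts between neurofilament genes in each library (linear axis from 0), by group; points are mice and the black mark is the mean with its SD. For Nefl to Nefh the 4 naive mice with AP20187 lie between 1.14 and 1.35, below all other libraries.

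Runx3 (ENSMUSG00000070691, chr4:134847963-134905301, + strand) encodes a RUNT-domain transcription factor of proprioceptors that is also made by cytotoxic T cells, NK cells and myeloid cells. It did not follow the neuronal genes. Its level was 5.16, 6.56, 7.72, 5.02 and 7.45 CPM in DMM vehicle mice 32, 33, 34, 63 and 64, and 11.3, 5.73, 8.18, 7.13 and 14.8 CPM in DMM AP20187 mice 58 to 62. AP20187 mice 58, 60 and 62 were above every vehicle mouse and the other 2 were within the vehicle range. The log2 fold change was 0.56 (SE 0.26, edgeR adjusted p = 0.124), which misses the threshold.

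Naive mice gave a similar size: 4.36, 8.25, 4.52, 5.45 and 7.75 CPM in vehicle mice 1 to 5, and 8.99, 7.57, 7.59 and 12.1 CPM in AP20187 mice 1, 3, 4 and 5. Mice 1 and 5 with AP20187 were above every vehicle mouse. The log2 fold change was 0.58 (SE 0.28, edgeR adjusted p = 0.172). Scaled to pan-neuronal counts, Runx3 was higher with AP20187 in DMM mice, at 1.73 (SE 0.42, edgeR adjusted p = 0.00624), and in naive mice, at 1.44 (SE 0.43, edgeR adjusted p = 0.0302), but so were 41.3% and 20.2% of all genes (20.7% of all genes passed in naive mice in either direction).

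Across the 19 libraries Runx3 correlated with the pan-neuronal mean at r = -0.41, and at r = 0.01 after group means were removed. Its r with the mean of 10 T and NK cell genes was -0.04 and with that of the bone marrow genes 0.27. The bone marrow mean joins granulocyte genes that rose with AP20187 and B-lineage genes that fell, so it does not measure myeloid RNA alone. Of the 10 T and NK cell genes 1 rose with AP20187 in DMM and in naive mice, Nkg7 (log2 fold change 2.83 and 2.81), and no other member passed. The summed level of the list was 21.7 to 41.3 CPM in DMM mice with AP20187, 4.18 to 40.6 with vehicle, 11.1 to 37.2 in naive mice with AP20187 and 5.01 to 19.5 with vehicle. Cd8a was at 0 in 1 library of each AP20187 group, Cd8b1 in 2 DMM libraries with AP20187 and Prf1 in 1 naive library with AP20187. The part of these cells in the Runx3 values was not tested.

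Pvalb (ENSMUSG00000005716, chr15:78075314-78090600, - strand) had a pattern of its own. It stood at 52.6, 49.2, 87.0, 26.8 and 49.97 CPM in naive vehicle mice 1 to 5, and at 247, 284, 164 and 213 CPM in naive AP20187 mice 1, 3, 4 and 5. All 4 AP20187 mice were above all 5 vehicle mice, a separation that 9.39% of all genes showed in this direction. The log2 fold change was 2.10 (SE 0.38, edgeR adjusted p = 0.0027), a rise of 4.27-fold, and Pvalb was the 1 gene of the 9 to pass in naive mice, against 11.2% of all genes. Runx3 and Pvalb had an unadjusted p below the threshold (all genes 28.8%), and DESeq2 called 1 of 9 (all genes 19.1%). The Pvalb call held with any 1 of the 9 naive libraries left out, with edgeR adjusted p between 0.00264 and 0.0106.

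In DMM mice it went the other way in value: 174, 40.2, 38.5, 113 and 87.5 CPM in vehicle mice 32, 33, 34, 63 and 64, and 53.4, 53.3, 63.7, 38.9 and 42.1 CPM in AP20187 mice 58 to 62. The AP20187 values lay inside the vehicle range. The log2 fold change was -0.85 (SE 0.36, edgeR adjusted p = 0.0901), and -0.44 without vehicle mouse 32. Without vehicle mouse 33 or 34 it passed, at -1.04 each (edgeR adjusted p = 0.0498 and 0.0440). The difference between the AP20187 effects in DMM and in naive mice was -2.94 (SE 0.52, edgeR adjusted p = 0.0348), the 1 interaction of the 9 genes to pass, where 0.114% of all genes passed, 0.0659% with a lower value, and 7.67% had an unadjusted p below the threshold. With 1 library left out in turn it passed in 7 of 19 fits, those without DMM vehicle mouse 32, 33, 34 or 64, naive AP20187 mouse 4 or 5, or naive vehicle mouse 3, and missed the threshold in the others. Scaled to pan-neuronal counts none of the 9 passed (all genes 0.0263%; Pvalb -2.71, edgeR adjusted p = 0.348). DESeq2 called 1 of 9 interactions (all genes 1%).

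With AP20187, DMM mice had less Pvalb than naive mice by 2.18 on the log2 scale (log2 fold change -2.18, SE 0.38, edgeR adjusted p = 0.0142). All 5 DMM mice were below all 4 naive mice, which 2.44% of all genes showed in this direction, and Pvalb was the 1 gene of the 9 to pass, where 0.702% of all genes passed and 0.439% were lower. Scaled to pan-neuronal counts none passed (all genes 0.149%; Pvalb -1.92, edgeR adjusted p = 0.191), and DESeq2 called 1 of 9 (all genes 4.87%). The interaction and this comparison share the naive AP20187 mice with the naive comparison. By mean CPM the groups ran from naive with AP20187 (227 ± 51.1, SD, n = 4) through DMM with vehicle (90.5 ± 56.2, n = 5) and naive with vehicle (53.1 ± 21.6, n = 5) to DMM with AP20187 (50.3 ± 9.94, n = 5). The ranges of each pair of neighbours overlapped, and the last 3 groups differed by less than 1 SD from one to the next.

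Skeletal muscle genes moved with Pvalb. The summed level of 13 genes of muscle contraction was 2298 to 3525 CPM in naive mice with AP20187, 19.9 to 611 in naive mice with vehicle, 22.7 to 2678 in DMM mice with vehicle and 24.3 to 199 in DMM mice with AP20187. Of the 13 genes, 6 rose with AP20187 in naive mice, among them Tnnc2 (log2 fold change 4.16) and Casq1 (3.48), where 8.61% of all genes rose. In DMM mice 4 of the 13 fell with AP20187, Myl1 (-4.95), Tnnc2 (-3.76), Tnni2 (-3.31) and Mylpf (-2.82), where 12.4% of all genes fell. All 13 were detected in every naive library, and Myh2 was at 0 in 2 DMM libraries with AP20187 and 1 with vehicle. The highest DMM vehicle library for muscle genes, mouse 32 at 2678 CPM, was also the highest for Pvalb, and mice 33 and 34, at 31.3 and 22.7 CPM, were the lowest of their group for Pvalb. Among DMM mice with AP20187 the order did not match: mice 62 and 61, the highest for muscle genes at 199 and 107 CPM, had the lowest Pvalb, and mouse 58, the lowest at 24.3 CPM, had 53.4 CPM of Pvalb.

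Over the 19 libraries log2 CPM of Pvalb correlated with the mean of the muscle genes at r = 0.87, and at r = 0.70 after group means were removed. With the pan-neuronal mean its r was -0.17. The genes most like Pvalb over the 19 libraries were Nctc1 (r = 0.94), Casq1 (r = 0.93), which encodes calsequestrin of muscle, Eno3 (r = 0.92), which encodes muscle enolase, Pgam2 (r = 0.92), the muscle phosphoglycerate mutase, and Sgca (r = 0.91), which encodes alpha-sarcoglycan. With the muscle score as a covariate the Pvalb difference in naive mice was 1.08 (edgeR adjusted p = 0.236), that between the AP20187 groups was -0.81 (edgeR adjusted p = 0.716), and the interaction was -1.37 (edgeR adjusted p = 1). None of these 3 then passed, but few genes did: the share of all genes called fell to 0.32%, 0.0307% and 0.00878%. The score separates the naive groups, so muscle RNA and AP20187 cannot be told apart in these fits.

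**Figure D5:**
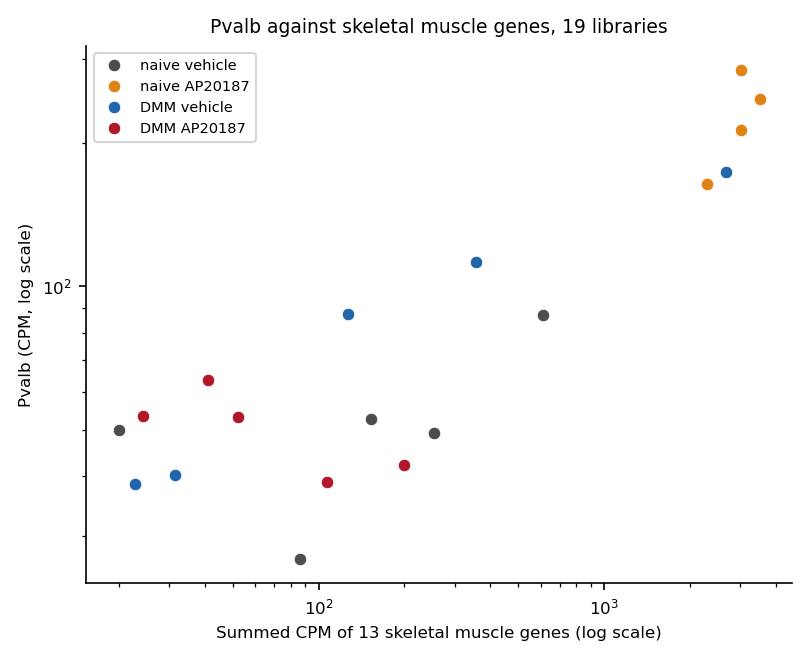
Pvalb level (CPM, log axis) against the summed level of 13 skeletal muscle genes (CPM, log axis), 1 point per library, coloured by group. The 4 naive mice with AP20187 and DMM vehicle mouse 32 lie together at 2298 to 3525 CPM of muscle genes, with 164 to 284 CPM of Pvalb.

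DMM was also compared with naive in mice given vehicle. None of the 9 genes passed by edgeR, which called 0 of 22778 genes (0%) in this comparison, with 1.66% at an unadjusted p below the threshold, and DESeq2 called 0 as well. Of the 9, 1 had an unadjusted p below the threshold, Pvalb, with a log2 fold change of 0.77 (SE 0.36, edgeR adjusted p = 1). The other 8 lay between -0.42 for Whrn and 0.07 for Runx3, with SEs from 0.26 to 0.57. With only mice 63 and 64 as the DMM vehicle group, 0 of 9 passed by edgeR and 2.21% of all genes did. With AP20187, 3 further genes had an unadjusted p below the threshold in DMM against naive mice (all genes 16.7%), each with a lower value: Nefh (log2 fold change -1.53, edgeR adjusted p = 0.214), Whrn (-1.11, edgeR adjusted p = 0.245) and Etv1 (-0.81, edgeR adjusted p = 0.253).

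The starts of the genes that went apart from the rest are shown for reference. RefSeq promoter sequences of build GRCm38.p6 were found for 5 of the 9 genes: Pvalb, Runx3, Etv1, Whrn and Cntnap2. Pvalb has 2 annotated starts and so has Runx3, and the 250 bases before each are printed 5′ to 3′ on the gene's strand. In Pvalb capitals mark the MEF2 consensus at start 1 and an E-box at start 2 (CANNTG, which muscle and many other bHLH factors bind), and in Runx3 they mark a RUNX motif (TGTGGT or its reverse complement). The windows are chr15:78206401-78206650 and chr15:78204238-78204487 (- strand) for Pvalb and chr4:135120395-135120644 and chr4:135152295-135152544 (+ strand) for Runx3.
Pvalb start 1: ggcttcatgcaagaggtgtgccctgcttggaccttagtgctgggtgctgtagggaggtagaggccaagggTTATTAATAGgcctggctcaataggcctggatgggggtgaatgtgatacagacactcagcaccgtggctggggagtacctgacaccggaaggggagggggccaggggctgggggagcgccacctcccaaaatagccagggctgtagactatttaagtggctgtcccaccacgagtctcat
Pvalb start 2: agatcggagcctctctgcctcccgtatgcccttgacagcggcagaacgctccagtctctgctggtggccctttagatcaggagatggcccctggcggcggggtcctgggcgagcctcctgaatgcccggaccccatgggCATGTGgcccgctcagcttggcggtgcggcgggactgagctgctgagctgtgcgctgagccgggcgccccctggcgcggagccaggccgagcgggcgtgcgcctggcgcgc
Runx3 start 1: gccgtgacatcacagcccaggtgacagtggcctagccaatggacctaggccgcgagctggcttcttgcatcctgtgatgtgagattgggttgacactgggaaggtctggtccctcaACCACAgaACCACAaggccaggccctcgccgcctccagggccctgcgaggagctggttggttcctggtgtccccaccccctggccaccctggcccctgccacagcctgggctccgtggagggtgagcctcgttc
Runx3 start 2: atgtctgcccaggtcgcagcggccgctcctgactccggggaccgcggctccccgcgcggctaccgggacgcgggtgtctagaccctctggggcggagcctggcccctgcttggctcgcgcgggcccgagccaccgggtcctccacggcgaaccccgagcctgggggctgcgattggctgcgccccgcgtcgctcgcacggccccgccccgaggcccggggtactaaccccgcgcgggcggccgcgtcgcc

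Both strands were searched. The E-box occurred 0 times at the upstream start of Pvalb and 1 time at the downstream start, and 66.2% of 32851 promoter windows of that length hold at least 1. The RUNX motif occurred 2 times at the upstream start of Runx3 and 0 times at the downstream start, and 14% of windows hold it. The bases just after that upstream start were found in 0 transcripts of Runx3 in another gene annotation, GENCODE. Those after each of the other 3 starts were found in 1 transcript of their gene. The MEF2 consensus, held by 2.92% of windows, occurred 1 time at the upstream start of Pvalb and in none of the other 3 windows. TATAAA, held by 12.4%, occurred in none of the 4. The upstream start of Runx3 also holds 1 E-box, not in capitals, and no match of one motif overlapped that of another in these windows. These matches describe letters in a window and not sites of binding.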

How the data were processed

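Poly(A) RNA from 19 mouse ganglion pools was sequenced as stranded libraries, per the labels' protocols. Per the submitters' processing notes, cutadapt, HISAT2 and StringTie and build GRCm39 were used, with no versions; the counting program is not given in the sources used here. The authors deposited raw counts per gene, and the same table holds the authors' FPKM, scaled to gene length and library size. The 9 genes had equal counts in both deposited tables; in the other, 6448 entries without a gene name held 0.414% to 1.72% of counts, and it was not used for tests.

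Counts were tested with edgeR 4.0.16 (R 4.3.3): TMM normalization, filterByExpr with a minimum count of 10, 1 model of 4 group means over 19 libraries (15 residual degrees of freedom), quasi-likelihood tests, and Benjamini-Hochberg adjustment over 22778 genes at 0.05. Scores of a gene list are mean log2 CPM with a prior count of 2. Alternatives were other scalings, no filter, DESeq2 1.42.0, limma 3.58.1 on log2(FPKM + 1) and log2(FPKM + 0.1), fewer groups, fewer mice, and left-out libraries. The named genes are the 9 genes, up to 4 per list with the smallest p in DMM mice, and the 5 of most similar pattern, of which 1 list gene is not reported here; members of the lists named for naive mice or as being at 0, Heg1, Hba-a1 and the neurofilament ratios were chosen after their values were seen. The 9 genes and the lists were chosen with earlier results of these data known, and the T and NK cell list was added after the values were seen. Each library is 1 mouse, but the labels do not say whether mice shared litters or cages.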

Additional observations from a re-analysis of the deposited data

Results flagged for a closer look

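For Pvalb, the difference of the AP20187 effect in DMM from that in naive mice was -2.94 on the log2 scale (edgeR interaction, SE 0.52, adjusted p = 0.0348). The rise in naive mice passed the test (2.10, edgeR adjusted p = 0.0027), and the value in DMM mice did not (-0.85, edgeR adjusted p = 0.0901). The DMM value was -0.44 without vehicle mouse 32 and 0.39 with pan-neuronal scaling. The interaction passed the threshold in 7 of 19 fits that each left out 1 library, and its value then ran from -3.19 to -2.55 with edgeR adjusted p from 0.00909 to 0.0886. The summed level of 13 skeletal muscle genes was 2298 to 3525 CPM in the 4 naive libraries with AP20187 and 24.3 to 199 CPM in the 5 DMM libraries with AP20187. With the muscle score as a covariate the value was -1.37 (edgeR adjusted p = 1). No library stood out from its group by Dixon's test in the 36 combinations of gene and group.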

How the results depend on the processing

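Of the 9 genes, 3 passed for AP20187 in DMM mice. That count, with the share of all genes called, was 5 (24.7%) with no normalization factors, 0 (11.3%) with no filter on low counts, 7 (30.5%) with DESeq2, 6 (25.3%) with limma on log2(FPKM + 1), 5 (24.9%) on log2(FPKM + 0.1), 0 (4.73%) with vehicle mice 63 and 64 only, 7 (36.3%) with mice 32 to 34 only, 1 (19.8%) with the muscle score as covariate, which was Nefl, 7 (29.3%) without the library of lowest pan-neuronal score in each group, and 0 to 6 (14.2% to 34%) when 1 library was left out. With pan-neuronal scaling it was 1 (41.8%), Runx3, higher, so none of the 3 lower genes remained. A fit of the 2 groups alone gave 2 (19.8%), Nefl and Calb1. In naive mice 1 (11.2%) passed, 2 (20.7%) with pan-neuronal scaling, 0 (0.32%) with the muscle score, and 1 (4.24% to 14.7%) in every fit without 1 library. Between the AP20187 groups 1 (0.702%) passed, and 0 with pan-neuronal scaling (0.149%) or the muscle score (0.0307%). For DMM against naive with vehicle 0 (0%) passed, and 0 (2.21%) with vehicle mice 63 and 64 only. The interaction count of 1 (0.114%) was 0 with pan-neuronal scaling (0.0263%), no filter (0.0354%), log2(FPKM + 0.1) (0.118%), mice 32 to 34 only (0.137%), the muscle score (0.00878%), or without the lowest libraries (0.061%), and 0 to 1 (0.0531% to 0.242%) with 1 library left out. The muscle score and the left-out lowest libraries were added after seeing the data. The cause of these changes was not tested.

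The log2 fold changes that turned their sign were all of genes that did not pass, except Etv1 in DMM mice with pan-neuronal scaling (0.17), where Pvalb had 0.39. With that scaling naive mice gave 0.39 for Etv1, 0.11 for Whrn, 0.36 for Nefh, 0.11 for Nefm and 0.0299 for Calb1, DMM against naive with AP20187 gave 0.0357 for Calb1, and the interaction gave 0.29 for Runx3. For DMM against naive with vehicle, mice 63 and 64 only gave -0.40 for Calb1, mice 32 to 34 only gave 0.14 for Etv1, 0.12 for Nefh, 0.23 for Nefm, 0.18 for Nefl and 0.17 for Cntnap2, and leaving out the lowest libraries gave -0.0779 for Runx3. With AP20187, Runx3 in DMM against naive was -0.25 with the muscle score and -0.0939 without the lowest libraries. The Runx3 interaction was 0.0321 with RLE, 0.0060 with no factors, 0.0318 with DESeq2, 0.0499 with limma on log2(FPKM + 1), 0.0504 on log2(FPKM + 0.1) and 0.0058 with mice 63 and 64 only, which gave 0.12 for Whrn and 0.39 for Cntnap2.

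With 1 library left out, ranges that crossed 0 were -0.65 to 0.0605 for Nefh in naive mice; for DMM against naive with vehicle -0.0250 to 0.21 for Runx3, -0.29 to 0.0368 for Etv1, -0.41 to 0.0783 for Nefm, -0.25 to 0.0872 for Nefl and -0.12 to 0.21 for Calb1; with AP20187 -0.16 to 0.20 for Runx3; and -0.24 to 0.16 for the Runx3 interaction. The ratio of Nefl to Nefh, tried after seeing the data, ranged over -0.0037 to 0.16 (log2) for AP20187 in DMM mice and over -0.76 to -0.63 in naive mice; in the naive fits, with 4 mice against 4 or 3 against 5, no p could pass the adjustment over 12 comparisons.

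Mouse numbers 1, 3, 4 and 5 are shared by the naive groups. Same-numbered mice deviated together with r of 0.0078, 0.25, -0.05 and 0.22, and 2 of 4 correlated best with their own number, so the numbers were not taken as pairs. With the number as a replicate block, 1 of 9 genes passed (11.1% of all genes), Pvalb with a log2 fold change of 2.18 (edgeR adjusted p = 0.00586). The lowest counts in a library were 105 for Whrn, 277 for Runx3 and 318 for Calb1, against 7951 for Nefh. The SEs for AP20187 in DMM mice were 0.45, 0.26, 0.47 and 0.58 for these genes in turn, so low counts did not go with larger SEs.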
